A study of Mus musculus with 12 samples.

Results

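The genes described here are the ligands and receptors of the platelet-derived growth factor (PDGF) family together with surface antigens used to isolate adipose progenitors, 10 of the 22180 genes measured. They are the receptor genes Pdgfra and Pdgfrb, the ligand genes Pdgfa, Pdgfb, Pdgfc and Pdgfd, and the antigen genes Cd34, Thy1, Cd24a and Icam1. Each was read from a probe set annotated to that gene alone, and where a gene had several, as only Cd24a did, the one with the highest mean over the 12 arrays was taken. The RNA came from C57BL/6 mice and was profiled on Affymetrix arrays in 4 groups of 3 biological replicates. Adipose progenitor preparations (AP) from the perigonadal visceral depot (VAT) and from the inguinal subcutaneous depot (SAT) were compared with whole adipose tissue (AT) of the same depots, all of it fresh. AP were what remained of the enzymatically released stromal-vascular cells after antibody-coated beads had taken out lineage-positive blood cells and CD31-positive endothelial cells. AT was neither dissociated nor depleted, so an effect of dissociation or of the beads cannot be told apart from the difference between AP and AT. The sex and age of the animals and the number of mice pooled per replicate are not given in the sources used here, and a p-value here reflects only the spread among these samples, which may be partly technical.

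PDGF ligands are secreted dimers that bring 2 receptor tyrosine kinases together, after which the receptors phosphorylate each other and recruit signalling proteins. The alpha receptor binds the A, B and C chains, and the beta receptor binds mainly the B and D chains. The C and D chains are secreted in a latent form that serine proteases must cut. In white fat the alpha receptor marks the stromal cells that can become adipocytes, while the beta receptor is shared by such cells and by the mural cells of blood vessels. CD34 and Thy-1 are antigens of these stromal cells, CD24 has been used in mice to separate an earlier progenitor, and ICAM-1 to mark preadipocytes already committed to the adipocyte fate.

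The values are log2 intensities from the robust multi-array average (RMA), so a difference of 1 is a change of 2-fold. The medians of the arrays lay between 4.49 and 4.67. A level under 4.10 (the 40th percentile over the whole array) is taken here as near background, and every member lay above it in every group. A gene is said to be called where limma gave a Benjamini-Hochberg adjusted p under 0.05 over all 22180 genes. Levels of different genes were not compared, since their probe sets differ. As these are bulk samples, fewer cells of a type and less RNA per cell cannot be told apart. Replicate 3 of AT from SAT stood apart from its group: its mean over 9 fibroblast and progenitor markers was 10.64, against 9.94 and 9.89 in replicates 1 and 2, and its mean over 9 T and NK cell markers was 4.75, against 5.56 and 5.35. Other AT arrays also stood apart. In AT from VAT, replicate 2 had 5.32 for T and NK cell markers, against 4.8 and 4.79. Replicate 3 there had 4.34 for B cell markers, against 4.95 and 5.05. In AT from SAT, replicate 2 had 8.06 for macrophage markers, against 8.59 and 8.78.

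Promoter windows, from 250 bases before to 50 bases after an annotated start site, were taken from RefSeq (GRCm38.p6) for 6 of the 10 genes. Windows are shown for a receptor, a ligand and an antigen. Pdgfra and Icam1 were called higher in AP of both depots, and Pdgfc was called lower in AP of 1 depot. Capitals mark matches to the motifs searched, on both strands.
Pdgfra, chr5:75152001-75152300, plus strand: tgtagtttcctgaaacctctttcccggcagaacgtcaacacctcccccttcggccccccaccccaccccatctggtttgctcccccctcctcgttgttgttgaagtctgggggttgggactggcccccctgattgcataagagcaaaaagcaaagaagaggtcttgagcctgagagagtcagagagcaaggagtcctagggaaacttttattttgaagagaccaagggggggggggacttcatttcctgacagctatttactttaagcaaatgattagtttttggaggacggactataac
Pdgfc, chr3:81036166-81036465, plus strand: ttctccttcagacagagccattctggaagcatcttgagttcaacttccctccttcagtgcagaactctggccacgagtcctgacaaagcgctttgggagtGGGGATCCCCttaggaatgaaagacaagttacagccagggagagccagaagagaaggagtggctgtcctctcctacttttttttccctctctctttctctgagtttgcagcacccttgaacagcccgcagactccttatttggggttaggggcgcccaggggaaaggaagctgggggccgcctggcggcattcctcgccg
Icam1, chr9:21015690-21015989, plus strand: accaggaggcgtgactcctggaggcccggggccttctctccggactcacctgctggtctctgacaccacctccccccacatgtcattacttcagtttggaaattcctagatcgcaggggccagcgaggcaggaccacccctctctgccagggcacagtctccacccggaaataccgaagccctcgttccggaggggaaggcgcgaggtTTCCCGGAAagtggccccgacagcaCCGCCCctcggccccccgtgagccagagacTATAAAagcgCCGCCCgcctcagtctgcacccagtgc
The motifs were a TATA box (TATAAA), a GC box (GGGCGG), an AP-1 site (TGANTCA), a STAT site (TTCNNNGAA) and the consensus of NF-kappaB. The Pdgfra window held none of them. The Pdgfc window held 1 NF-kappaB match, at -150 to -141 with the start site counted as 0, and a match to this motif was found in 4.5% of the 32851 windows of the same length. The Icam1 window held a STAT match at -42 to -34 (8.3% of all windows), GC boxes at -17 to -12 and at 23 to 28 (35.7% of windows), and a TATA box at 13 to 18 (13.6% of windows). These matches did not overlap each other. GC content was 51.0% for Pdgfra, 55.0% for Pdgfc and 64.7% for Icam1, beside a median of 52.7% over all windows. Of the other genes, Pdgfd held a TATA box at -160 to -155, both windows of Pdgfa held GC boxes and Cd34 held no match. Thy1, Cd24a, Pdgfb and Pdgfrb are named only. A match describes the letters of the window and not a bound site.

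The comparison of AP with AT asks which of these genes distinguish the isolated progenitors from their source tissue. Both receptors, the ligand Pdgfa and the antigens Cd34, Thy1 and Icam1 were called higher in AP of both depots, whereas no ligand or antigen was called lower in both. In VAT 9 of the 10 genes were called, 7 higher (those 6 and Pdgfd) and 2 lower (Pdgfc and Cd24a). In SAT 7 were called, 6 higher and 1 lower (Pdgfb). Over all genes 32.6% were called in VAT and 32.4% in SAT. The median log2 difference of the 10 genes was 0.77 in VAT and 1.02 in SAT, beside 0.03 over all genes in each depot. The replicates of AP and AT did not overlap for 9 of the 10 genes in VAT (40.9% of all genes) and for 7 in SAT (44.6% of all genes). When both depots were averaged all 10 genes were called, 7 higher and 3 lower, against 42.5% of all genes. The 3 lower genes, Pdgfb, Pdgfc and Cd24a, had negative differences in each depot. Scaling the arrays to housekeeping genes instead moved the median of all genes up by 0.65 in VAT and 0.40 in SAT, to 0.68 and 0.43, and that of the 10 genes to 1.42 in each depot, so each direction given for AP against AT is relative to the RMA scale. On the housekeeping scale the differences of Pdgfb in VAT (0.39) and of Pdgfc (0.20) and Cd24a (0.14) in SAT took the opposite sign.

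**Figure D1:**
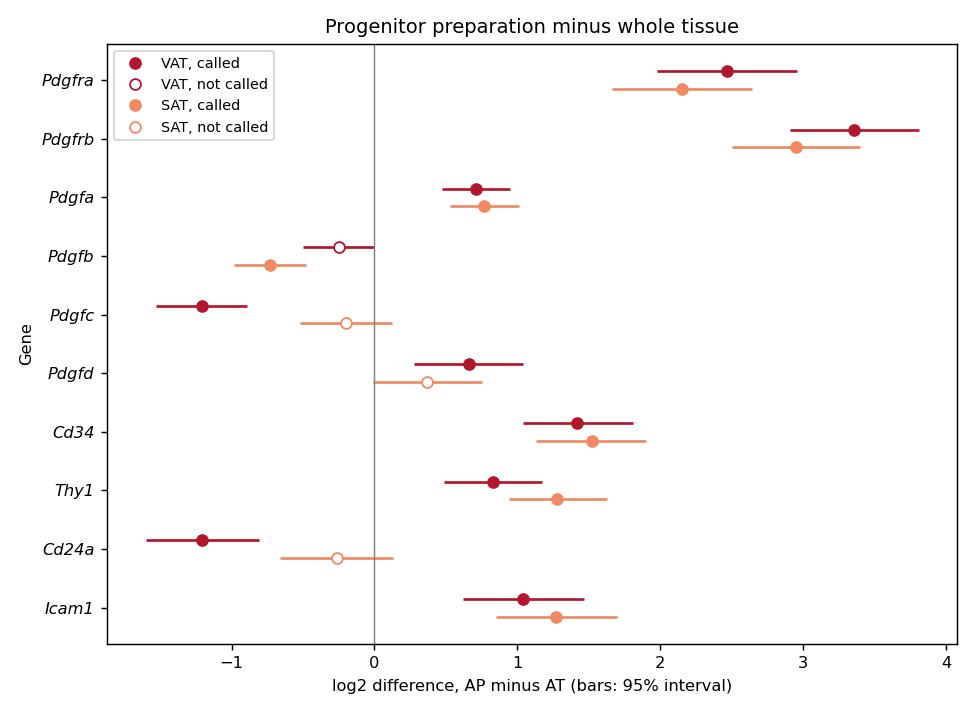
Log2 difference of AP minus AT for each of the 10 genes (x axis, in log2 units) with its 95% interval from limma, in VAT (dark) and in SAT (light), 3 arrays per group. Filled points are called and open points are not; the receptors lie furthest to the right, at 3.36 and 2.95 for Pdgfrb, and Pdgfc and Cd24a lie at -1.21 in VAT on the RMA scale.

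The receptors showed the largest differences of the 10 genes. Pdgfrb, the gene of the beta receptor (Entrez Gene 18596), had levels of 10.52, 10.26 and 10.57 in AP from VAT and 10.3, 10.43 and 10.58 in AP from SAT. In AT its levels were 6.81, 7.5 and 6.95 in VAT and 7.22, 7.19 and 8.04 in SAT. All 6 AP arrays lay above all 6 AT arrays, by more than 2 log2 units. AP exceeded AT by 3.36 in VAT (SE 0.211, 10.29-fold, limma adjusted p = 8.2e-09) and by 2.95 in SAT (SE 0.211, 7.75-fold, limma adjusted p = 3.05e-08). A larger difference in VAT was found for 0.11% of all genes.

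Pdgfra, the gene of the alpha receptor (Entrez Gene 18595), had levels of 11.05, 10.86 and 11.23 in AP from VAT and 11.05, 11.02 and 11.15 in AP from SAT. In AT it had 8.55, 8.66 and 8.52 in VAT and 8.82, 8.31 and 9.64 in SAT. The groups did not overlap, and the AT values from SAT spread most, with replicate 3 the highest of them. The difference was 2.47 in VAT (SE 0.227, 5.54-fold, limma adjusted p = 5.16e-07) and 2.15 in SAT (SE 0.227, 4.44-fold, limma adjusted p = 2.06e-06). Without replicate 3 of AT from SAT the SAT differences were 2.51 for Pdgfra and 3.23 for Pdgfrb, and both stayed called.

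Most markers of mural cells, which also carry the beta receptor, moved with the receptors. Of the 12 mural markers, 11 were called higher in VAT and 9 in SAT, and 1, the adhesion molecule Mcam, lower in each. The 2 not called in SAT were Rgs5 (0.46) and Cspg4 (-0.12), which rose by 1.17 and 0.88 in VAT. The notch receptor Notch3 rose by 2.95 in VAT and 2.91 in SAT, and the smooth muscle myosin Myh11 by 3.43 and 2.64. The summed linear intensity of the list was 10015 to 11223 in AP from VAT and 8122 to 8501 in AP from SAT, against 2682 to 3412 in AT from VAT and 2727 to 2921 in AT from SAT, and none of the 12 was near background in AP. Markers of fibroblasts and progenitors were called higher in 9 of 9 cases in each depot, with sums of 29009 to 29107 and 35565 to 37610 in AP from VAT and SAT, against 11128 to 13273 and 14452 to 22227 in AT. Adipocyte markers were called lower in 9 of 9 cases, with sums of 1990 to 2378 and 1926 to 2117 in AP from VAT and SAT, against 24634 to 25980 and 23363 to 23832 in AT. Their median difference was -5.32 in VAT and -5.41 in SAT. Most of the AP sums came from Fabp4, with means of 10.69 and 10.6 in AP from VAT and SAT. Mast cell markers were called higher in 6 of 7 cases in each depot, with medians of 1.08 in VAT and 1.3 in SAT and sums of 914 to 1320 and 2245 to 2549 in AP, against 330 to 391 and 608 to 1401 in AT. What part each of these cell types had in the receptor differences was not tested.

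**Figure D2:**
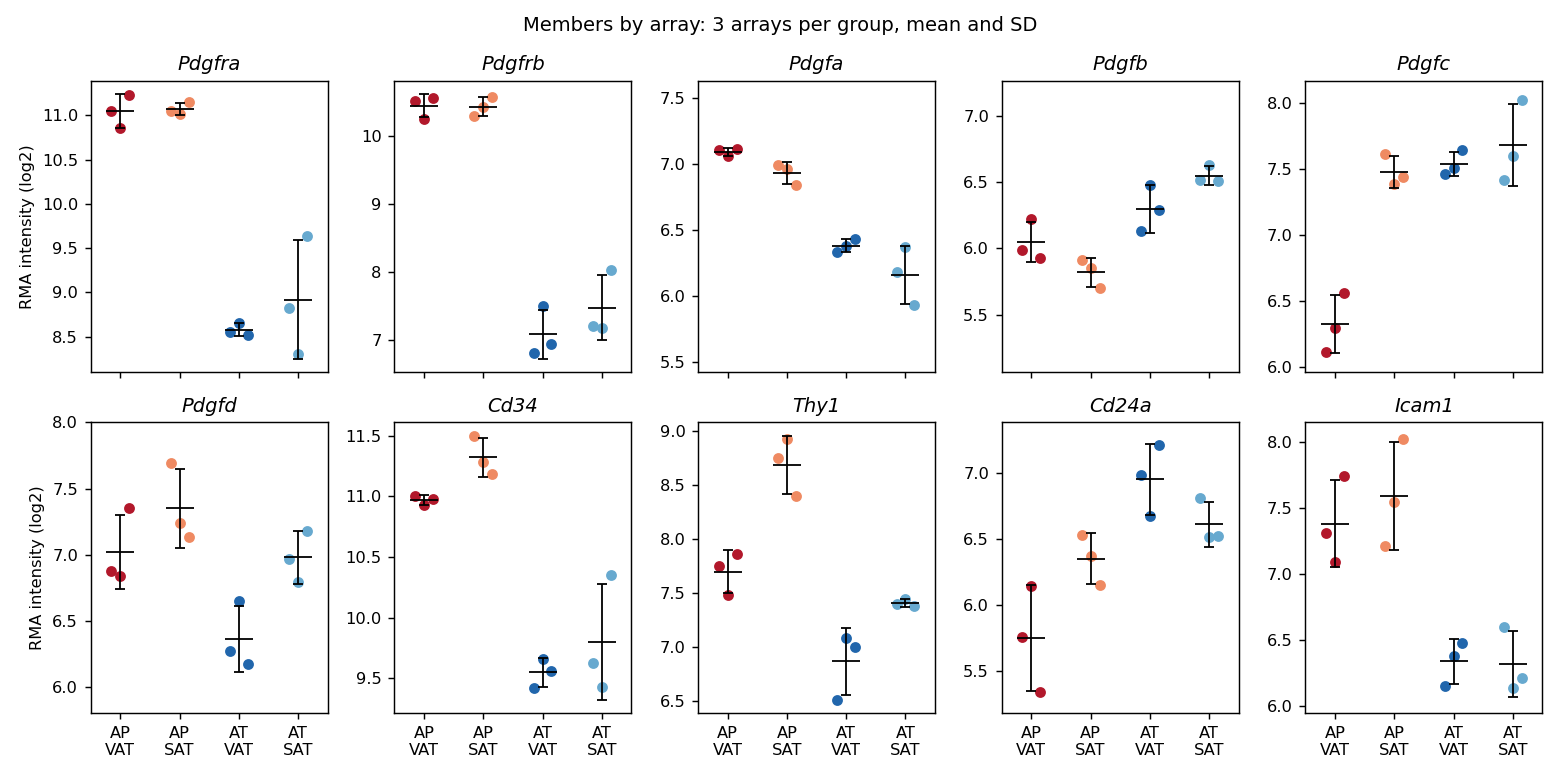
Log2 RMA intensity (y axes, scaled per gene) of the 10 genes in each of the 12 arrays, with the mean (wide line) and SD (error bar) of the 3 arrays of a group; AP from VAT and SAT stand left of AT from VAT and SAT. Pdgfra and Pdgfrb separate AP from AT, Pdgfc is low in AP from VAT alone (6.12 to 6.56) and Thy1 is highest in AP from SAT (8.40 to 8.93).

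The ligands of the alpha receptor did not move together. Pdgfa (Entrez Gene 18590), whose product dimerizes to PDGF-AA, had 7.10, 7.06 and 7.11 in AP from VAT and 6.99, 6.96 and 6.84 in AP from SAT, against 6.33, 6.38 and 6.43 in AT from VAT and 6.18, 6.37 and 5.93 in AT from SAT. No AP value overlapped with AT. It rose by 0.71 in VAT (SE 0.112, limma adjusted p = 0.000126) and by 0.77 in SAT (SE 0.112, limma adjusted p = 5.1e-05), a smaller change than that of either receptor. The interaction of depot and preparation was -0.06 for Pdgfa (95% interval -0.40 to 0.28, limma adjusted p = 0.922).

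Pdgfc (Entrez Gene 54635), which encodes a chain secreted in latent form, was low in a single group. Its levels were 6.12, 6.30 and 6.56 in AP from VAT, while AP from SAT had 7.61, 7.39 and 7.44. AT had 7.46, 7.51 and 7.64 in VAT and 7.42, 7.60 and 8.02 in SAT. AP from VAT thus lay below every other array, and the other 3 groups overlapped. In VAT it fell by 1.21 (SE 0.149, limma adjusted p = 1.09e-05), which is 2.31-fold lower in AP. In SAT the difference was -0.20 (95% interval -0.52 to 0.12, limma adjusted p = 0.363), and it was 0.20 on the housekeeping scale.

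Pdgfb (Entrez Gene 18591), the ligand of both receptors that endothelial cells release to recruit mural cells, had 5.99, 6.22 and 5.93 in AP from VAT and 5.91, 5.85 and 5.70 in AP from SAT. AT had 6.13, 6.48 and 6.29 in VAT and 6.52, 6.63 and 6.51 in SAT. The groups were apart in SAT and overlapped in VAT. In SAT Pdgfb fell by 0.73 (SE 0.117, 1.66-fold lower in AP, limma adjusted p = 0.000121). In VAT the difference was -0.25 (SE 0.117, limma adjusted p = 0.114), with a 95% interval that began at -0.50 and ended just below 0, and it turned to 0.39 (adjusted p = 0.014) on the housekeeping scale. Endothelial markers were lower in 10 of 12 cases in each depot and higher in 1, the angiopoietin receptor Tek. Pecam1, the gene of the depleted CD31 antigen, fell by 2.83 in VAT and 2.97 in SAT. The sum of their linear intensities was 658 to 805 in AP from VAT and 842 to 931 in AP from SAT, against 1999 to 2738 in AT from VAT and 2606 to 2976 in AT from SAT. These sums include Tek, the marker that rose, with means of 7.49 and 8.62 in AP from VAT and SAT. No endothelial marker fell under the near-background level in AP, but Cldn5 in AP from VAT lay at it, with a mean of 4.1 (3.97 to 4.32). The part of endothelium in the Pdgfb values was not tested. Platelets also store PDGF-B. Of 4 platelet and megakaryocyte markers, Pf4 was called lower in both depots (-3.04 in VAT, -2.74 in SAT), Gp9 higher in VAT (0.49) and Ppbp lower in SAT (-0.59). Itga2b was called in neither depot (-0.04 in VAT, 0.14 in SAT). Ppbp was near background in AP of both depots and in AT from VAT. The part of platelets in the Pdgfb values was not tested.

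Pdgfd (Entrez Gene 71785), the ligand of the beta receptor, had 6.88, 6.84 and 7.35 in AP from VAT and 7.69, 7.24 and 7.13 in AP from SAT, against 6.27, 6.65 and 6.17 in AT from VAT and 6.97, 6.79 and 7.18 in AT from SAT. The groups were apart in VAT and overlapped in SAT. Pdgfd rose by 0.66 in VAT (SE 0.178, 1.58-fold, limma adjusted p = 0.00918). In SAT the difference was 0.37 (95% interval -0.01 to 0.75, limma adjusted p = 0.133), and 0.77 (adjusted p = 0.000886) on the housekeeping scale.

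Of the antigens, Cd34 (Entrez Gene 12490), which encodes a sialomucin of progenitors and endothelium, had 11, 10.93 and 10.98 in AP from VAT and 11.50, 11.28 and 11.18 in AP from SAT. AT had 9.42, 9.66 and 9.56 in VAT and 9.63, 9.43 and 10.35 in SAT, where replicate 3 was again the highest. The difference was 1.42 in VAT (SE 0.179, 2.68-fold, limma adjusted p = 1.38e-05) and 1.52 in SAT (SE 0.179, 2.86-fold, limma adjusted p = 6.49e-06). Without replicate 3 of AT from SAT the difference of Cd34 in SAT was 1.79. Cd34 thus rose in the same arrays in which Pecam1 fell.

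Thy1 (Entrez Gene 21838), the gene of a glycolipid-anchored antigen of stromal cells and, in mice, of T cells, had 7.75, 7.48 and 7.86 in AP from VAT and 8.75, 8.93 and 8.40 in AP from SAT. AT had 6.51, 7.09 and 7.0 in VAT and 7.40, 7.45 and 7.38 in SAT. AP lay above AT in each depot. Thy1 rose by 0.83 in VAT (SE 0.162, limma adjusted p = 0.000835) and by 1.28 in SAT (SE 0.162, limma adjusted p = 1.23e-05). Of 9 T and NK cell markers 2 were called lower in VAT and 4 in SAT, and 0 higher in either. Their summed linear intensity was 245 to 273 in AP from VAT and 242 to 258 in AP from SAT, against 280 to 460 in AT from VAT and 271 to 600 in AT from SAT. Klrb1c, the gene of the NK1.1 antigen, was near background in all 4 groups.

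Icam1 (Entrez Gene 15894), which encodes a ligand of leukocyte integrins and is induced by inflammatory signals, had 7.31, 7.09 and 7.74 in AP from VAT and 7.21, 7.54 and 8.02 in AP from SAT, against 6.15, 6.38 and 6.48 in AT from VAT and 6.60, 6.14 and 6.21 in AT from SAT. The AP groups spread more widely than the AT groups and did not overlap with them. It rose by 1.04 in VAT (SE 0.200, 2.06-fold, limma adjusted p = 0.00074) and by 1.27 in SAT (SE 0.200, 2.42-fold, limma adjusted p = 0.00011). Genes that answer to NF-kappaB or interferon moved the same way, 11 of 12 called higher in each depot, led by the cytokine Il6 (4.42 in VAT, 5.98 in SAT, near background in AT) and the chemokine Cxcl1 (3.37 in VAT, 4.15 in SAT). Their sums were 2613 to 3513 in AP from VAT and 4041 to 5759 in AP from SAT, against 889 to 935 in AT from VAT and 900 to 1131 in AT from SAT. The immediate early list, which also includes the heat shock genes Hspa1a and Hspa1b, holds genes that many cells switch on during handling. These genes were called higher in 13 of 13 cases in each depot, with a median difference of 4.37 in VAT and 4.51 in SAT. Their sums were 26635 to 29033 in AP from VAT and 28361 to 30832 in AP from SAT, against 1336 to 1442 in AT from VAT and 1095 to 1553 in AT from SAT. What part a response to the isolation had in the Icam1 difference was not tested.

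Cd24a (Entrez Gene 12484), the gene of a glycolipid-anchored sialoglycoprotein, was the 1 antigen gene called lower in AP, in VAT and not in SAT. On the RMA scale its mean difference over both depots was also called (-0.74, limma adjusted p = 0.00024). Its interaction was not called (limma adjusted p = 0.0843), so a fall particular to VAT was not detected. Cd24a had 5.76, 6.14 and 5.34 in AP from VAT and 6.53, 6.37 and 6.15 in AP from SAT, against 6.98, 6.67 and 7.21 in AT from VAT and 6.81, 6.51 and 6.52 in AT from SAT. AP lay below AT in VAT, and the groups overlapped in SAT. It fell by 1.21 in VAT (SE 0.185, 2.31-fold lower in AP, limma adjusted p = 9.61e-05). In SAT the difference was -0.26 (95% interval -0.66 to 0.13, limma adjusted p = 0.33), and 0.14 on the housekeeping scale. The second probe set of Cd24a was dim, with group means of 4.0 and 4.18 in AP from VAT and SAT and of 4.38 and 4.13 in AT, and gave -0.39 in VAT (adjusted p = 0.0725) and 0.05 in SAT, so the fall in VAT rests on 1 probe set. CD24 is also abundant on B cells, of whose 7 markers 4 were called lower in VAT and 0 in SAT. The B cell sum was 130 to 146 in AP from VAT and 115 to 147 in AP from SAT, against 150 to 254 in AT from VAT and 134 to 187 in AT from SAT. Ms4a1 and Fcer2a were near background in AP of both depots and in AT from SAT, and Fcer2a in AT from VAT as well. The part of B cells in the Cd24a values was not tested.

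The comparison of depots asks whether these genes differ between visceral and subcutaneous fat. In AP, 2 of the 10 genes were called, Pdgfc and Thy1, both lower in VAT, while 5.64% of all genes were called. The replicates of the depots did not overlap for 6 of the 10 genes in AP, namely Pdgfc, Cd34, Thy1 and Cd24a, lower in VAT, and Pdgfa and Pdgfb, higher in VAT (20.4% of all genes). For Cd24a the gap was slight, the highest array being 6.14 in VAT and the lowest 6.15 in SAT. In AT limma called 0 of the 10 genes, with 4.55% of all genes called. At an unadjusted p under 0.05 there were 3 in AP (Pdgfc, Thy1 and Cd24a, with 15.4% of all genes) and 3 in AT (Pdgfb, Pdgfd and Thy1, with 15.8% of all genes). The same 3 in AT were the genes whose depots did not overlap there, all lower in VAT (18.1% of all genes). The median difference of the 10 genes was -0.27 in AP and -0.26 in AT, beside a median near 0 over all genes. These comparisons share arrays with those of AP against AT and are no separate evidence for a gene.

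**Figure D3:**
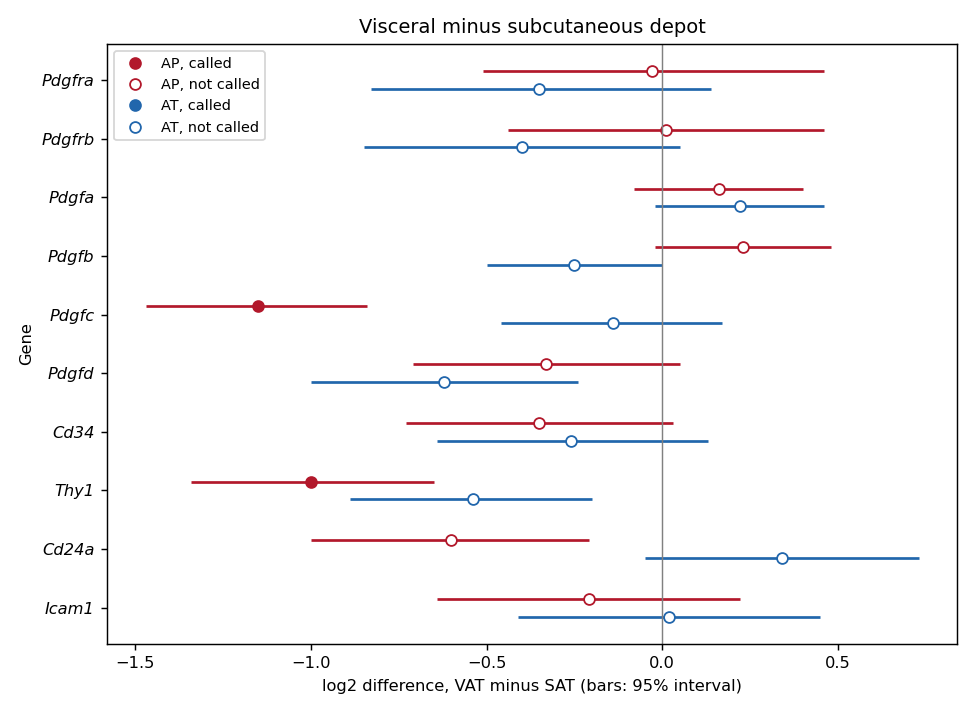
Log2 difference of VAT minus SAT for each of the 10 genes (x axis, in log2 units) with its 95% interval from limma, in AP (red) and in AT (blue), 3 arrays per group. The called points are Pdgfc at -1.15 and Thy1 at -1.0, both in AP; the intervals of Pdgfra and Pdgfrb in AP straddle 0.

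Pdgfc fell in VAT by 1.15 among AP (SE 0.149, 2.22-fold lower, limma adjusted p = 0.000126), with 6.33 ± 0.22 in VAT and 7.48 ± 0.12 in SAT (mean ± SD, n = 3 each). In AT its depots differed by -0.14 (95% interval -0.46 to 0.17, limma adjusted p = 0.727). The difference between these differences, tested as the interaction of depot and preparation, was -1.01 (SE 0.210, 95% interval -1.46 to -0.56, limma adjusted p = 0.0206). Pdgfc was the 1 member of 10 called in that test, which called 2.15% of all genes. The interaction call is narrow, since the adjusted p ranged from 0.00293 to 0.066 when each array was left out in turn. It passed 0.05 in 5 cases, in which the array left out was AP from VAT replicate 1 or 2, AP from SAT replicate 1, AT from VAT replicate 3 or AT from SAT replicate 1. On the housekeeping scale it was -0.76 (adjusted p = 0.0709). The fall in AP from VAT stayed called in all these cases, between -1.27 and -1.05 with an array left out and at -1.04 on the housekeeping scale.

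Thy1 fell in VAT by 1.0 among AP (SE 0.162, 2.00-fold lower, limma adjusted p = 0.001), with 7.70 ± 0.20 in VAT and 8.69 ± 0.27 in SAT (mean ± SD, n = 3 each). In AT the difference of Thy1 was -0.54 (SE 0.162, limma adjusted p = 0.076), in the same direction. The interaction for Thy1 was -0.45 (95% interval -0.94 to 0.03, limma adjusted p = 0.419), so that a difference between AP and AT in this respect was not detected.

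Cd24a had a depot difference of -0.60 in AP (SE 0.185, limma adjusted p = 0.0776) and of 0.34 in AT (SE 0.185, limma adjusted p = 0.406), and an interaction of -0.94 (95% interval -1.50 to -0.39, limma adjusted p = 0.0843). Pdgfb likewise had opposite signs, 0.23 in AP (limma adjusted p = 0.393) and -0.25 in AT (limma adjusted p = 0.304), with an interaction of 0.48 (95% interval 0.13 to 0.83, limma adjusted p = 0.181). Neither gene passed the threshold over all genes, but Cd24a did without replicate 2 of AP from VAT, at -0.80 for the depots in AP (adjusted p = 0.0208) and -1.14 for the interaction (adjusted p = 0.0366), and with array weights (adjusted p = 0.0324 and 0.0468). Pdgfd differed by -0.33 in AP (limma adjusted p = 0.425) and by -0.62 in AT (SE 0.178, limma adjusted p = 0.0659). For the receptors the depot intervals in AP ran from -0.51 to 0.46 for Pdgfra and from -0.44 to 0.46 for Pdgfrb, and differences within these bounds cannot be told from 0 here. The intervals in AP for the remaining genes were -0.08 to 0.40 for Pdgfa, -0.73 to 0.03 for Cd34 and -0.64 to 0.22 for Icam1.

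Other cell types differed between the depots in AP as well. All 10 mesothelial markers, genes of the lining of the body cavity, were called higher in VAT, with summed intensities of 4502 to 6240 in AP from VAT and 411 to 518 in AP from SAT. The mesothelial antigen gene Msln was higher by 3.63. Fibroblast and progenitor markers were called lower in VAT for 4 of 9 genes and higher for 0, NF-kappaB and interferon responsive genes lower for 4 of 12 and higher for 0, and mural markers higher for 4 of 12 and lower for 0. Mast cell markers were lower in VAT for 4 of 7 genes. Ms4a2 and Fcer1a were near background in AP from VAT and in AT of both depots. In AT all 10 mesothelial markers were also called higher in VAT, with sums of 3170 to 3902, against 390 to 461 in SAT. Lower in VAT there were 5 of 9 fibroblast and progenitor markers and 4 of 7 mast cell markers. Of 12 NF-kappaB and interferon responsive genes 1 was called lower, and mural markers were called higher for 3 and lower for 2. The part of these shifts in the Pdgfc and Thy1 differences was not tested.

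In the order of group means, Pdgfra, Cd34, Thy1 and Pdgfd ran from AP of SAT over AP of VAT and AT of SAT to AT of VAT. For Thy1 each group lay apart from the next, whereas the AT groups overlapped for Pdgfra and Cd34, the AP groups overlapped for Pdgfra, and for Pdgfd AP from VAT overlapped with both neighbours. Pdgfrb and Pdgfa were highest in AP from VAT, with the depots of AP overlapping for Pdgfrb and apart for Pdgfa. Icam1 had the AP groups on top, and its depots overlapped in AP and in AT. Pdgfb had the reverse order of preparations, highest in AT from SAT and lowest in AP from SAT. Pdgfc and Cd24a were lowest in AP from VAT, and their other groups overlapped with their neighbours.

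Genes with the most similar pattern over the 12 arrays were found by the root mean square difference after centring each gene, among 2654 genes whose SD over the arrays was at least 0.5. Nearest to Pdgfra were Dpep1 (0.125), Lama2 (0.143) and Antxr1 (0.173). Those nearest to Pdgfrb were Dusp1 (0.240), of the immediate early list, Rgs4 (0.247) and Notch3 (0.262), of the mural list. For Pdgfc they were Lgmn (0.178), Syk (0.194) and Utrn (0.263), with depot differences in AP of -1.45 for Lgmn and -1.12 for Syk. For Cd34 they were Fn1 (0.125), Lamc1 (0.130) and Tgfbr3 (0.130), for Thy1 P4ha2 (0.174), Agpat4 (0.191) and Srgap1 (0.197), and for Icam1 Ksr1 (0.198), Adamtsl3 (0.202) and Zc3h12a (0.205). For Cd24a they were Sox7 (0.263), Slc2a13 (0.291) and Reep5 (0.307), the last of these being a member of the housekeeping list. Pdgfa, Pdgfb and Pdgfd varied by an SD under 0.5 and were given none.

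Among the genes that release or bind PDGF, 7 of 9 were called higher in AP in each depot, with medians of 0.53 in VAT and 0.91 in SAT beside 0.03 over all genes. Plau, the gene of the urokinase that can cut the D chain, had means of 10.06 and 9.45 in AP from VAT and SAT, against 7.60 and 7.44 in AT, and rose by 2.46 in VAT (SE 0.209, limma adjusted p = 2.15e-07) and 2.02 in SAT (SE 0.209, limma adjusted p = 1.65e-06). Plat, the gene of the tissue plasminogen activator that cuts the C chain, had 9.67 and 9.97 in AP, against 7.73 and 7.61 in AT, and rose by 1.94 in VAT and 2.36 in SAT (SE 0.189 each). Nrp1, a co-receptor that binds PDGF, fell in SAT by 0.55 (SE 0.124) and differed by -0.18 in VAT (limma adjusted p = 0.313). Pcsk6, a proprotein convertase, rose by 0.53 in VAT and 1.52 in SAT, and its interaction was -0.99 (SE 0.206, limma adjusted p = 0.0206).

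**Figure D4:**
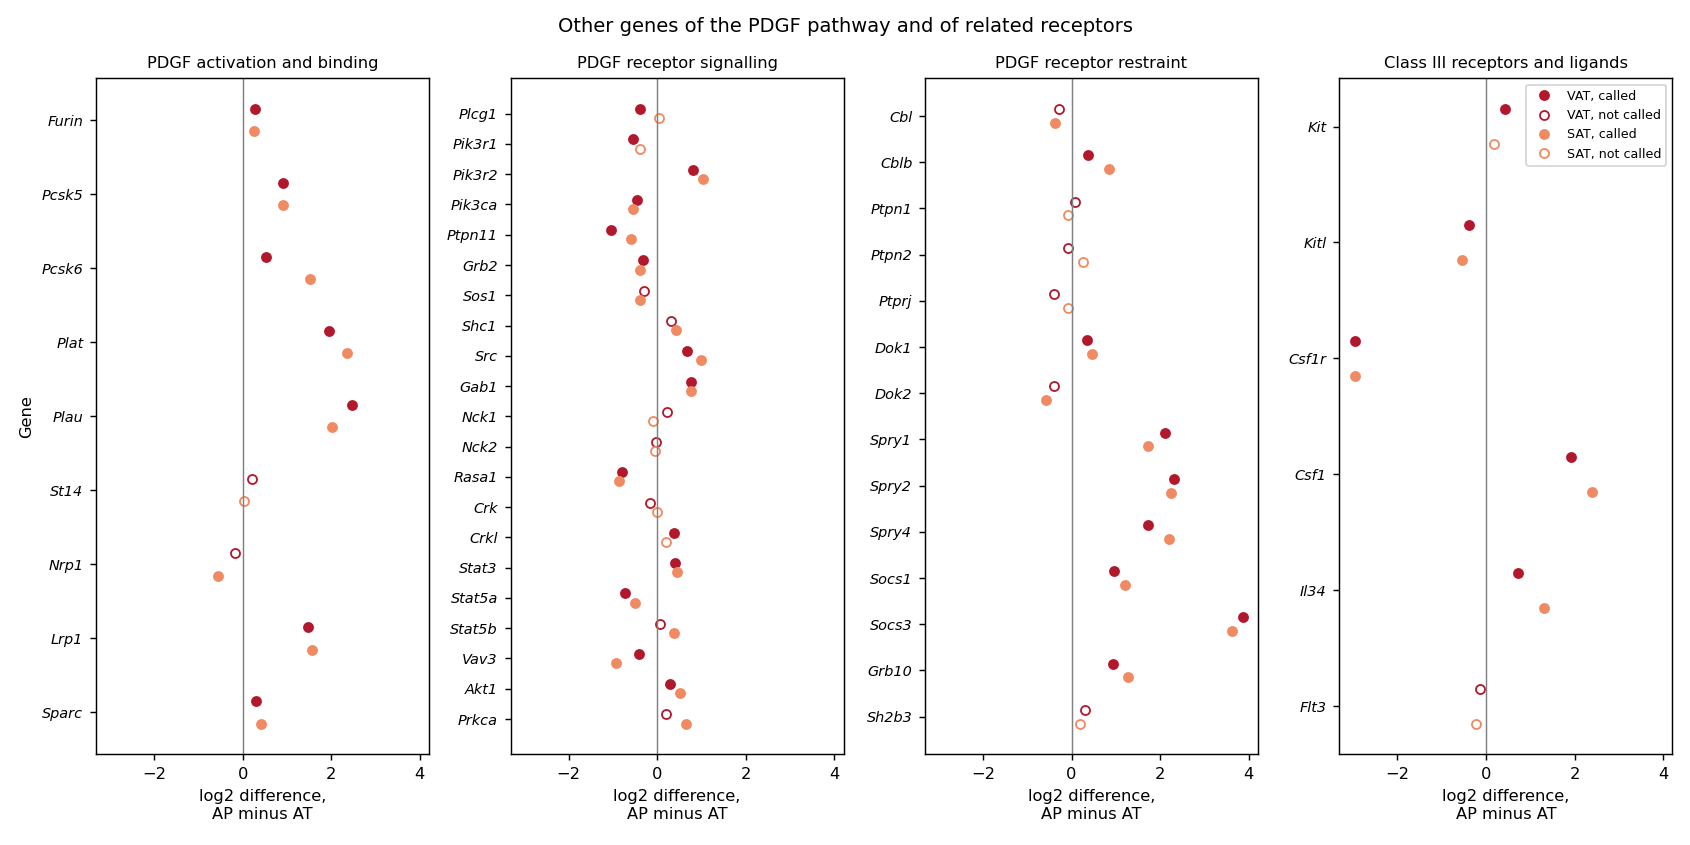
Log2 difference of AP minus AT (x axes, in log2 units) for the other measured genes of 4 lists, those that activate or bind PDGF, relay the receptor signal, restrain it, or encode related receptors of the same class and their ligands, in VAT (dark) and SAT (light). Filled points are called; Socs3 reaches 3.87 and 3.62, Plau 2.46 and 2.02, and Csf1r lies at -2.96 and -2.97, while the signalling genes lie on both sides of 0.

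Genes that relay the signal inside the cell were split. Of 21 measured, 6 rose and 8 fell in VAT, and 8 rose and 7 fell in SAT, with a median of -0.03 in VAT and near 0 in SAT. Pik3r2, a regulatory subunit of phosphoinositide 3-kinase, rose by 0.81 in VAT and 1.03 in SAT, and the kinase Src by 0.67 and 0.98. Ptpn11, the phosphatase SHP-2 that docks on the receptors, fell by 1.04 in VAT and 0.59 in SAT. Rasa1, a GTPase-activating protein of Ras, fell by 0.80 and 0.85.

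Genes that restrain receptor kinases were called higher for 8 of 14 in each depot and lower for 0 in VAT and 2 in SAT, with medians of 0.37 and 0.65. Socs3, a feedback inhibitor of cytokine signalling, rose by 3.87 in VAT (SE 0.123) and 3.62 in SAT (SE 0.123), and Spry2, a feedback inhibitor of receptor kinases, by 2.31 and 2.25 (SE 0.126 each). Between depots in AP, Spry1 was higher in VAT by 0.64 (SE 0.138, limma adjusted p = 0.00944), and Cblb, a ubiquitin ligase, fell in VAT by 0.73 (SE 0.139, limma adjusted p = 0.00374). The immediate early genes that rose in AP are given above beside Icam1, and their part in these values was not tested.

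Of 6 genes for the related KIT, CSF-1 and FLT3 receptors and their ligands, 3 rose and 2 fell in VAT, and 2 rose and 2 fell in SAT. Both that rose in SAT, Csf1 and Il34, encode ligands, and in VAT Kit rose as well (0.43). The ligand gene Csf1 rose by 1.92 in VAT and 2.39 in SAT (SE 0.209 each), whereas Csf1r, the receptor of macrophages, fell by 2.96 and 2.97 (SE 0.202 each). Macrophage and monocyte markers were lower in 12 of 12 cases, with sums of 448 to 489 and 446 to 565 in AP from VAT and SAT, against 5193 to 5787 and 4722 to 7753 in AT.

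Of 23 further surface antigens of stromal progenitors, 14 were called higher in AP in each depot, and 5 were called lower in VAT and 4 in SAT, with medians of 0.66 and 0.76. Pi16, an antigen of the fibroblasts of the adventitia, rose by 2.65 in VAT and 2.69 in SAT (SE 0.302 each), and the collagen-binding integrin Itga11 by 2.30 and 2.53 (SE 0.255 each). Cd36, the fatty acid transporter abundant on adipocytes and endothelium, fell by 3.54 and 3.30 (SE 0.114 each). Between depots in AP, 2 of the 23 were called, with a median of -0.04 over the list: Pi16 fell in VAT by 1.61 (SE 0.302, limma adjusted p = 0.00329) and Dpp4 by 1.35 (SE 0.277, limma adjusted p = 0.00695). In AT the depots differed by -1.57 for Pi16 (limma adjusted p = 0.00567) and by -0.17 for Dpp4 (limma adjusted p = 0.845).

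The binding partners of the antigens are mostly genes of other cells. Of 11 measured, 2 rose and 4 fell in VAT, and 2 rose and 5 fell in SAT. Itgam and Itgb2, which encode a leukocyte integrin that binds ICAM-1, differed by -3.03 and -1.91 in VAT and by -3.11 and -1.76 in SAT, all called lower. The leukocyte integrin genes Itgal (0.06 in VAT, -0.36 in SAT) and Itgax (-0.30 and -0.54) were called in neither depot. The integrin genes Itgav and Itgb3, whose products together bind Thy-1, rose by 0.79 and 0.61 in VAT and by 0.90 and 1.3 in SAT. Podxl, a sialomucin related to CD34, was higher in VAT by 2.16 among AP (SE 0.186, limma adjusted p = 2.28e-06), with 6.63 ± 0.19 in VAT and 4.47 ± 0.44 in SAT (mean ± SD, n = 3 each). It is also made by mesothelial cells, whose 10 markers were higher in the same arrays, and their part was not tested.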

How the data were processed

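RNA from fresh material of C57BL/6 mice was hybridised to 12 Affymetrix arrays. As deposited, each probe set has a log2 intensity that the authors computed with RMA in Affymetrix Expression Console 1.3.0.187, per the submitters' processing notes. Base 2 is inferred from RMA itself and from values of 1.69 to 13.48. The annotation library is not given in the sources used here. Array scans were not used here.

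Of 41345 probe sets, 23521 were annotated to 1 gene, 1814 to several and 16010 to none; the first kind gave 22180 genes. limma 3.58.1 in R 4.3.3 fitted 1 mean per group to all 12 arrays, with 8 residual and 6.84 prior degrees of freedom. The tests were 2-sided, in 6 contrasts, with Benjamini-Hochberg adjustment over all genes of a contrast. SE is that of the moderated fit; precision is limited by the few arrays. In values simulated for AP against AT in VAT over 22180 genes, limma called 45 of the 50 genes raised by 1 log2 unit, 19 of the 50 raised by 0.5 and 8 of 21980 unchanged genes. The simulation had independent noise and few raised genes, whereas 32.6% of genes were called in the data. Its counts therefore do not carry over to the data. The alternatives tried were quantile normalization, a block for the replicate number, array weights, trended and robust variance priors, a fit to the 2 compared groups only, scaling to 11 housekeeping genes, a filter at the 40th percentile, the mean over probe sets, a difference of at least 1, each array left out in turn and, added after seeing the data, the second Cd24a probe set.

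The 10 genes and the 20 other gene lists were chosen with earlier results of these data known. The text names all 10 genes and, of each other list it describes, at most 2 called genes in each direction per contrast, plus marker genes and a few other genes chosen by name. The 3 genes nearest in pattern follow the same rule for every member. Sequences are from RefSeq (GRCm38.p6); the build used for the deposited values is not given in the sources used here. Arrays of 1 group correlated at 0.9869 to 0.9936 across genes, which are not independent replicates, and no pair shared more than 2.1% of its values, so each array counted as 1 replicate.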

Additional observations from a re-analysis of the deposited data

Results flagged for a closer look

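Pdgfc stood out because its depot difference was not the same in the 2 preparations: the interaction of depot and preparation was -1.01 on the log2 scale (limma adjusted p = 0.0206), with VAT minus SAT at -1.15 in AP and -0.14 in AT. All 3 AP arrays from VAT lay below all 3 from SAT, while the AT depots overlapped. The interaction call is narrow. It was lost in 5 cases with an array left out (limma adjusted p up to 0.066) and on the housekeeping scale.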

How the results depend on the processing

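Of the values of single members under the alternatives, 1181 kept their direction and their side of the threshold, 16 became called, 21 were no longer called and 28 changed sign. The calls for AP against AT were the steadiest: with any array left out, 9 members in VAT, 7 in SAT and 10 over both depots were called, as in the fit to all arrays. The largest shift came from scaling to housekeeping genes, whose medians in AP lie lower. It called 19198 genes in VAT (18063 higher), 15563 in SAT (13829 higher) and 19692 over both depots (18061 higher), turned Pdgfb to 0.39 in VAT and 0.03 over both depots, and turned Pdgfc to 0.20 and Cd24a to 0.14 in SAT, where the second probe set of Cd24a gave 0.05. Over both depots Pdgfc (-0.18, adjusted p = 0.124) and Cd24a (-0.21, adjusted p = 0.195) were no longer called on that scale. It turned the depot difference of Pdgfra in AP to 0.08 and of Icam1 in AT to -0.12, and the interactions of Pdgfa to 0.19, Cd34 to 0.15 and Icam1 to 0.02. It left 0 members called in the interaction and 2 in the depot comparison in AT. The cause was not tested. Reep5, of the housekeeping list, is among the 3 genes nearest in pattern to Cd24a.

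Demanding a difference of at least 1 left 1968 genes in VAT, 2205 in SAT, 1990 over both depots, 370 for depots in AP, 251 for depots in AT and 222 for the interaction, and 5 members over both depots and 1 in the depot comparison in AP, by the construction of the rule. In AT between depots, where 0 members were called, array weights and quantile normalization called 2 each (Pdgfd and Thy1), the filter at the 40th percentile 1, and leaving out an array 0 to 2 (2 without replicate 2 of AT from VAT, 1 without replicate 3 of AP from VAT or replicate 1 of AP from SAT). Genes called were 660 to 1026, the fewest without replicate 1 of AT from SAT, and the arrays of these groups alone called 601 genes. For the interaction, array weights called 2 members, and leaving out an array 0 to 1, with 264 to 626 genes called against 476. Fewest were called without replicate 1 (264) or 2 (309) of AP from SAT, replicate 2 of AP from VAT (279) or replicate 1 of AT from SAT (293).

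The other changes of sign were of differences that were not called. In AP between depots, Pdgfra was 0.01 under quantile normalization and -0.12 to 0.07 with an array left out, Pdgfrb -0.06 to 0.11 and Icam1 from -0.40 to 0. In AT between depots, the ranges with an array left out were -0.65 to 0.01 for Pdgfra, -0.27 to 0.03 for Pdgfc, -0.44 to 0.02 for Cd34 and -0.07 to 0.16 for Icam1, which was -0.08 with array weights. Interactions ranged from -0.04 to 0.63 for Pdgfra, from -0.16 to 0.06 for Pdgfa and from -0.37 to 0.09 for Cd34. Replicate 3 of AT from SAT was the array left out at the positive end for Pdgfra, Pdgfc and Cd34 between depots in AT, and at the negative end of the Pdgfra interaction. Signals near background, as for the second Cd24a probe set, limit what can be read from dim genes.

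With the replicate number as a block, members called stayed at 9 in VAT, 7 in SAT, 10 over both depots, 2 and 0 between depots in AP and AT, and 1 in the interaction, where the adjusted p of Pdgfc was 0.0152. Genes called were 6968, 7013, 9169, 1187, 946 and 417 in the same order. The deviations of arrays with the same number correlated at -0.2796 to 0.1594 over 18 pairs, beside -0.1839 to 0.3093 for different numbers. With 3 arrays per group these correlations cannot show whether the numbers pair the samples.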
